A study of Homo sapiens with 8 samples.

Results

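TAZ binding was followed around 7 Krüppel-like factor (KLF) genes, grouped here as KLF factors of epithelium, of 20007 protein-coding genes annotated. They were KLF3, KLF4, KLF5, KLF6, KLF7, KLF9 and KLF10. A peak belonged to a KLF gene when its summit, the base with the highest pile of fragments, lay within 250 kb of a transcription start site (TSS) of that gene and no other protein-coding gene had a nearer TSS. By this rule the 4 deposited peak lists held 110 peaks, which merged into 76 separate regions. The measurement was chromatin immunoprecipitation with sequencing (ChIP-seq) in MCF10A, an established, non-transformed line of human mammary epithelial cells. All cells carried TAZ-4SA, an activated mutant of the co-activator TAZ, under a doxycycline (Dox) switch. They were left without Dox (No Dox) or received Dox at 0.05 µg/ml for 24, 48 or 72 h, so that the No Dox cells carried the transgene too. Each condition had 1 library with an antibody to TAZ and 1 with IgG, 8 libraries in all, and 1 peak list. The antibody does not separate TAZ-4SA from the TAZ that the cells make themselves.

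KLF proteins carry a triplet of zinc fingers that bind GC-rich and CACCC sequences, and they act as activators or repressors through the remainder of the protein. In epithelium KLF4 is known for differentiation and barrier formation, and KLF5 for the proliferating basal compartment. KLF6 and KLF7 form a closely related pair, KLF9 and KLF10 recruit the co-repressor SIN3A, and KLF3 recruits the co-repressor CTBP. TAZ cannot bind DNA directly and is brought to chromatin mainly by TEAD factors, often beside AP-1.

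With 1 TAZ library per condition there was no replicate check, so every difference below is a difference between single libraries, no test was made, and the intervals given cover counting error only. The No Dox list held 2431 peaks, the 24 h list 2469, the 48 h list 11767 and the 72 h list 38667. Their lowest local background, a measure of depth, ranged from 1.42 fragments at 24 h to 2.84 at 48 h, with 2.01 at 72 h. The No Dox list stood apart in position. Of its summits within 250 kb of a protein-coding TSS, 65.7% lay within 3 kb, against 18.5% to 37.7% in the Dox lists. Among marker genes, 5 of 6 basal genes and 3 of 3 luminal genes had a summit within 3 kb of a TSS at 72 h. So did 0 of 4 genes of other cell types, and 58.5% of all protein-coding genes. In the No Dox, 24 h and 48 h lists, 1, 1 and 2 basal genes had one, and 0, 0 and 2 luminal genes. For genes of other cell types it was 0 in each list, and for all protein-coding genes 9.42%, 2.55% and 9.1%. Binding does not measure expression, and no RNA was used here.

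Regions are numbered along the chromosome within each gene. The windows below are hg38, plus strand, reaching 100 bp to each side of the summit at 72 h. They were chosen because they hold the sites that the results turn on: the first sites called after Dox, the strongest site of KLF6, KLF7 and KLF9 within 250 kb at 72 h, and sites of KLF3, KLF4 and KLF6 with a motif near the summit. Capitals mark exact matches, on either strand, to the TEAD motif (ACATTCC or GCATTCC) or the AP-1 motif (TGACTCA or TGAGTCA).
KLF5 region 13, chr13:73273800-73274000: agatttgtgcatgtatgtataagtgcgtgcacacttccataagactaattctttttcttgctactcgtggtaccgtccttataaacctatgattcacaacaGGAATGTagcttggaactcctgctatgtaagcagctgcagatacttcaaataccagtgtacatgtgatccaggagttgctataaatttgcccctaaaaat
KLF7 region 6, chr2:207254084-207254284: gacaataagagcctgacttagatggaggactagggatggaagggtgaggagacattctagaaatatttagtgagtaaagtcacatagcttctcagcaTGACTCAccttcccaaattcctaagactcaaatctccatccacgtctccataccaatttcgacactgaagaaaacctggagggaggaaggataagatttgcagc
KLF7 region 7, chr2:207258553-207258753: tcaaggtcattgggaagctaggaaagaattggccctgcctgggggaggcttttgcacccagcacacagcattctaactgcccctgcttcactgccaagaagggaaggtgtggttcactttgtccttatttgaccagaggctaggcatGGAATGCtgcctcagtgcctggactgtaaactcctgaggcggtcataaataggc
KLF9 region 2, chr9:70419814-70420014: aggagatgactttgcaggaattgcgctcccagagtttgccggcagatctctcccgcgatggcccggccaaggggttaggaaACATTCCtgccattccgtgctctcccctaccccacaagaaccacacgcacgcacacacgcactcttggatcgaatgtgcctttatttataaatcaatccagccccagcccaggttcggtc
KLF6 region 24, chr10:3926796-3926996: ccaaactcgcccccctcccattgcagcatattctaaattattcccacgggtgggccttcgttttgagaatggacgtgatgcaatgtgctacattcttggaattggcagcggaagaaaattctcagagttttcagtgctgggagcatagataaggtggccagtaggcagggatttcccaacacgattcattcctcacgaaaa
KLF6 region 21, chr10:3890025-3890225: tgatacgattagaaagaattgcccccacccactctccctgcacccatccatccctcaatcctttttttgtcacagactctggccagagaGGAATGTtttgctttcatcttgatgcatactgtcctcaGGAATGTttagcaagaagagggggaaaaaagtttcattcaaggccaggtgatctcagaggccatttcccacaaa
KLF4 region 4, chr9:107711659-107711859: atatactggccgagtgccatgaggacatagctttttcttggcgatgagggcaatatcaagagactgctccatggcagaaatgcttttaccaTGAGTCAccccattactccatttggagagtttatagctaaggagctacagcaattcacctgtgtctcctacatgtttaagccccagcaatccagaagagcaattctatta
KLF3 region 5, chr4:38667209-38667409: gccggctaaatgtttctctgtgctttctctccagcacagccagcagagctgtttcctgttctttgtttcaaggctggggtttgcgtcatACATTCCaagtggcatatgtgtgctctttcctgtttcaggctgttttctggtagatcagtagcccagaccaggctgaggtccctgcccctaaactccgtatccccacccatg

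In these windows the nearest base of a TEAD match lay 1 bp from the summit in KLF5 region 13, 5 bp in KLF3 region 5 and in KLF6 region 21, which held 2 matches, 13 bp in KLF9 region 2 and 47 bp in KLF7 region 7. The AP-1 match of KLF7 region 6 spanned the summit, and that of KLF4 region 4 lay 3 bp away. KLF6 region 24 had neither motif, which says only that these letters were not in its window.

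TAZ peaks at the 7 KLF loci numbered 4 in the No Dox list, 2 after 24 h, 28 after 48 h and 76 after 72 h. Per 100 kb of sequence that the rule gives to these genes this was 0.183, 0.0917, 1.28 and 3.49 peaks, beside 0.102, 0.0952, 0.459 and 1.56 peaks over the loci of all protein-coding genes. At least 1 peak was assigned to 3 of the 7 genes without Dox (10.7% of all protein-coding genes), 2 at 24 h (8.7%), 6 at 48 h (26.6%) and 7 at 72 h (64.8%). A summit within 3 kb of a TSS was found at 2 of the 7 genes without Dox (KLF3 and KLF10; 9.42% of all genes), 0 at 24 h (2.55%), 3 at 48 h (KLF3, KLF5 and KLF7; 9.1%) and 7 at 72 h (58.5%). These shares by gene make no allowance for the size of a locus or its number of start sites. The KLF loci held from 136 kb (KLF10) to 505 kb (KLF6), and from 1 start site (KLF9) to 14 (KLF7). The smallest summit that was called at a KLF locus had 19, 27, 18 and 13 fragments in the 4 lists, in the same order. A missing peak means that no position passed the caller's threshold, not that TAZ was absent.

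**Figure D1:**
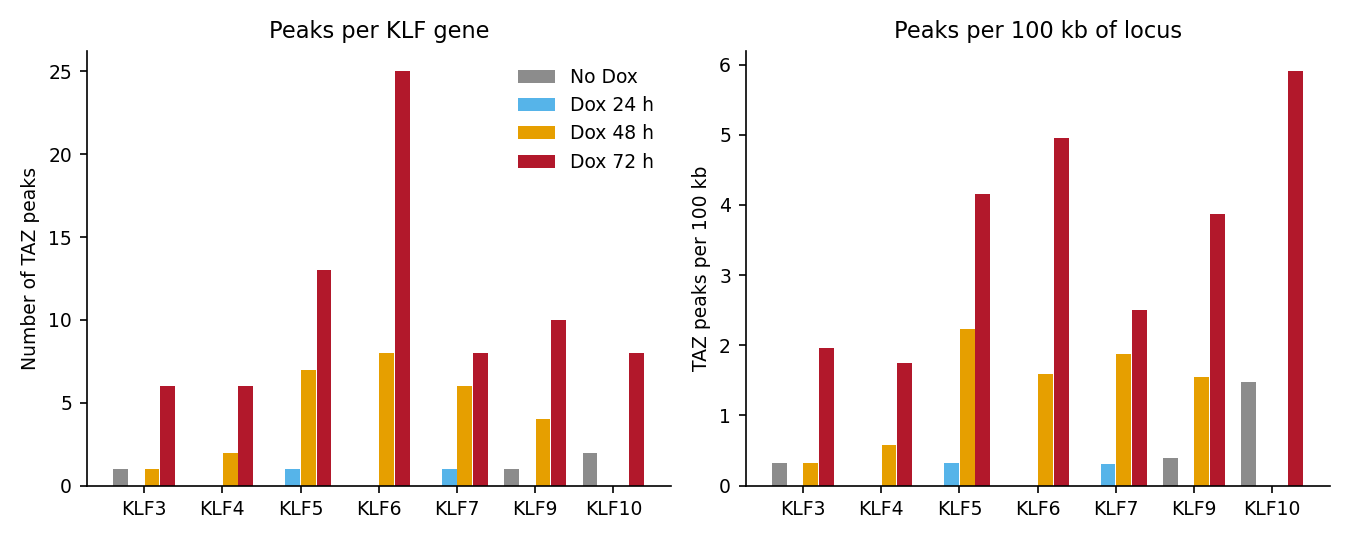
TAZ peaks assigned to each KLF gene in the 4 lists, as a number (left axis) and per 100 kb of the gene's locus (right axis). KLF6 had the highest number at 72 h, 25, while KLF10 had the highest density, 5.90 per 100 kb, and no peak at 24 or 48 h.

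KLF6, a zinc-finger factor described as a tumour suppressor, had the most peaks at 48 h (8) and at 72 h (25). At 72 h only 0.05% of protein-coding genes had as many, which put KLF6 at rank 9 of 20007. Within 100 kb KLF6 had 5 and 15 peaks, the former as many as KLF7. KLF5 followed with 7 and 13 peaks, KLF9 with 4 and 10, KLF7 with 6 and 8, KLF4 with 2 and 6, and KLF3 with 1 and 6. KLF10 had 0 and 8. Since a gene with few neighbours collects more sequence under the nearest-gene rule, the order by density differed: per 100 kb at 72 h, KLF10 had 5.90 peaks, KLF6 4.95, KLF5 4.16, KLF9 3.87, KLF7 2.5, KLF3 1.96 and KLF4 1.75. The locus given to KLF10 was the smallest, 136 kb, and that of KLF6 the largest, 505 kb.

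**Figure D2:**
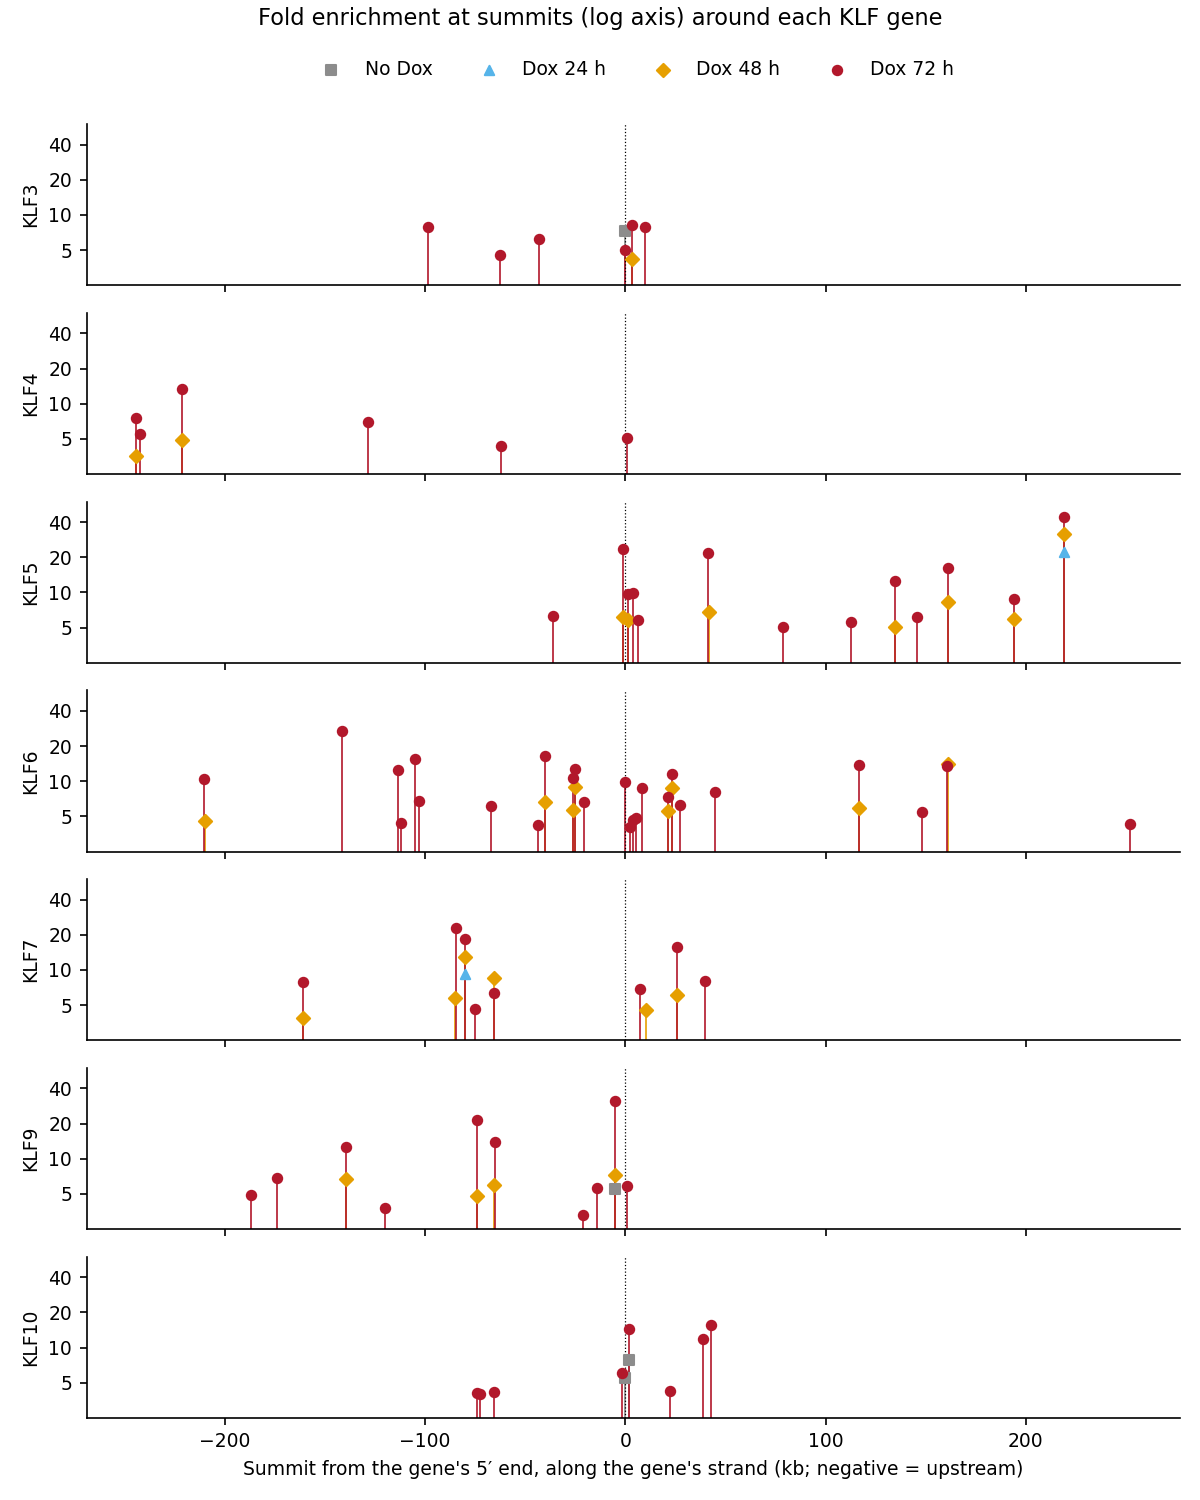
Fold enrichment (log axis) of every peak at the 7 KLF loci against the distance of its summit from the gene's 5′ end, counted along the gene's strand, with 1 panel per gene and 1 marker per list. The KLF5 peaks reach 44.2-fold at the far downstream end of the panel, the KLF9 peaks lie almost all upstream, and the KLF6 peaks lie on both sides.

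KLF5 (plus strand of chromosome 13, 73054976 to 73077541) held the strongest KLF site in all 3 Dox lists. This was region 13, in intergenic sequence 219 kb downstream of the 5′ end (73273170 to 73274798). It was not called without Dox. Fold enrichment is the fragments at the summit plus 1, over the local background plus 1. At region 13 it began at 22.0 at 24 h (95% counting interval 17.1 to 27.9). It reached 31.6 (27.2 to 36.5) by 48 h and 44.2 (37.6 to 51.5) by 72 h. Neighbouring times were 1.44-fold apart (95% interval of the ratio 1.09 to 1.95) from 24 to 48 h and 1.4-fold (1.12 to 1.74) from 48 to 72 h. The site exceeded 98.5%, 99.6% and 99.3% of all peaks in the list of its time. Its 3 summits lay within 20 bp of one another. The fragments at the summit numbered 67, 183 and 160, and the local background was 2.09, 4.83 and 2.64 fragments. These counts and backgrounds are not scaled for depth. The lowest local background was 2.84 fragments in the 48 h list and 2.01 in the 72 h list. Whether the higher ratio at 72 h came from the fragments or the background was not tested.

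The KLF5 promoter showed no peak before 48 h. Region 2, 1.30 kb upstream of the 5′ end, had 6.15-fold at 48 h and 23.7-fold at 72 h, a ratio of 3.86 (2.66 to 5.72), with summits 1 bp apart. Its summit fragments numbered 48 and 72, and its local background fell from 6.97 to 2.08. Region 3, 1.18 kb downstream in the first part of the gene, had 5.78 and 9.70 (ratio 1.68, 1.08 to 2.62). There the fragments numbered 42 and 46, and the background fell from 6.43 to 3.85. Regions 4 and 5, in introns within 261 and 506 bp of internal start sites, were called only at 72 h, at 9.94-fold and 5.76-fold. Of the 13 regions, 11 lay downstream of the 5′ end. The rule, however, gave KLF5 42.7 kb upstream and 270 kb downstream, and per 100 kb this came to 4.69 peaks upstream and 4.07 downstream. Region 6, 41.5 kb downstream, had both a TEAD and an AP-1 match and had 6.86-fold at 48 h and 21.7-fold at 72 h (ratio 3.17, 2.32 to 4.42). Regions 9, 11 and 12, between 135 and 194 kb downstream, had 5.05, 8.32 and 5.93 at 48 h and 12.5, 16.3 and 8.87 at 72 h. The interval of the ratio included 1 for region 12 (1.5, 0.901 to 2.63).

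KLF4 (minus strand of chromosome 9, 107484852 to 107490482), a differentiation factor of epithelium, had no peak without Dox or at 24 h. At 48 h it had 2 peaks, both over 220 kb upstream, of which 1 passed a −log10 q of at least 5. With a limit of 500 kb there were 4. Region 4, 221 kb upstream in intergenic sequence, had 4.93-fold (3.44 to 6.86) at 48 h and 13.2-fold (9.95 to 17.3) at 72 h, with summits 3 bp apart beside an AP-1 match. Region 6, 244 kb upstream, had 3.59 and 7.58. The promoter region of KLF4, region 1, was called only at 72 h, 142 bp from a start site, at 5.05-fold. The 72 h window of this promoter held 10 matches to the KLF/SP motif (CCNCNCCC), overlapping ones included, and neither TEAD nor AP-1.

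Around KLF6 (minus strand of chromosome 10, 3775996 to 3785281) nothing was called without Dox or at 24 h. The 8 regions called at 48 h all lay more than 16 kb from a start site of KLF6. The strongest of them was region 2, 161 kb downstream, with 14.1-fold (10.6 to 18.3) at 48 h and 13.6-fold (10.6 to 17.3) at 72 h, a ratio of 0.969 (0.666 to 1.43). Its summits lay 527 bp apart, so the values are from different positions within one merged region. Upstream, region 17 had 6.60 and 16.5 (ratio 2.5, 1.71 to 3.78), region 15 had 8.93 and 12.8, region 16 had 5.62 and 10.7 and region 25 had 4.54 and 10.5. Downstream, region 4 had 5.93 and 13.7, region 7 had 8.70 and 11.6 and region 8 had 5.51 and 7.37. The intervals of the last 2 ratios included 1.

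Within the 250 kb limit, the strongest KLF6 site at 72 h had not been called before. It was region 24, 142 kb upstream in an intron of the non-coding gene LINC02660, at 27.1-fold (21.8 to 33.3). Beyond the limit, a site at 280 kb that was nearest to KLF6 had 5.90-fold at 48 h and 28.5-fold at 72 h. The KLF6 regions within 3 kb of a start site, 5 in number, were also called only at 72 h. Region 13, 66 bp from a start site, had 9.92-fold. Region 9, 2987 bp from a start site in an exon of KLF6, had 8.75, and regions 10, 11 and 12 inside the gene had 4.81, 4.67 and 4.06. The 25 regions were spread over both sides of the gene, with 13 upstream and 12 downstream, and 14 lay in intergenic sequence.

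KLF7 (minus strand of chromosome 2, 207074137 to 207173856), the relative of KLF6, had the second KLF site that was called at 24 h. Region 6, 80.3 kb upstream in an intron of the non-coding gene ENSG00000223725, had 9.18-fold (6.16 to 13.2) at 24 h, followed by 12.9-fold (10.1 to 16.1) and, in the last list, 18.3-fold (14.8 to 22.4). The ratio was 1.4 (0.912 to 2.32) from 24 to 48 h, 1.42 (1.04 to 1.96) from 48 to 72 h and 1.99 (1.32 to 3.27) from 24 to 72 h, so the first step lay within counting error and the others did not. Its summits lay within 40 bp. Region 7, 84.8 kb upstream and in the same non-coding gene, was called first at 48 h at 5.75-fold (4.31 to 7.53) and passed region 6 at 72 h with 23-fold (18.8 to 27.9). The fragments at its summit numbered 51 and 102, and its local background fell from 8.04 to 3.47. Region 2, in an intron of KLF7, had 6.10 and 15.9, and region 8, 161 kb upstream, had 3.91 and 7.96.

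Region 4, in an exon of the non-coding gene MYOSLID 65.6 kb upstream of KLF7, had 8.56-fold at 48 h and 6.36-fold at 72 h. Its ratio of 0.743 (0.474 to 1.17) was the lowest of all sites called at both times, with an interval that included 1. Near start sites of KLF7, region 3 had 4.52 at 48 h and 6.91 at 72 h. Its 2 summits lay 2777 bp apart, the later in an exon of MIR7845, so the overlap joined a narrow early peak and a wide late one. Region 1, 38 bp from an internal start site in an exon of KLF7, was called only at 72 h, at 8.09-fold.

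KLF9 (minus strand of chromosome 9, 70384604 to 70414657), a factor known for its induction by glucocorticoid and thyroid hormones, was among the 3 genes with a peak without Dox. Region 2, 5.26 kb upstream in an exon of the non-coding gene ENSG00000289159 (70418002 to 70421211), had 5.49-fold (3.6 to 8.06) without Dox. It was not called at 24 h, and had 7.27-fold (5.22 to 9.87) at 48 h and 31.4-fold (26.9 to 36.5) at 72 h. From 48 to 72 h the ratio was 4.32 (3.09 to 6.41), while from No Dox to 48 h it was 1.32 (0.789 to 2.34), an interval that included 1. The summits moved by 186 bp over the lists. The windows at 48 and 72 h held the TEAD match and the window without Dox did not.

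Region 6 of KLF9, 74.3 kb upstream in intergenic sequence, had the highest ratio of all KLF sites from 48 to 72 h, with 4.76-fold (3.28 to 6.69) and 21.7-fold (17.7 to 26.2), a ratio of 4.56 (3.09 to 7.20). Regions 5 and 8, the latter in an intron of TRPM3, had 5.94 and 6.70 at 48 h and 13.8 and 12.5 at 72 h. The only KLF9 region within 3 kb of its start site, region 1, was called at 72 h alone, at 5.81-fold. Of the 10 regions 9 lay upstream, where the rule gave KLF9 224 kb against 34.1 kb downstream.

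KLF10 (minus strand of chromosome 8, 102648784 to 102655725), known as an early gene of the TGF-β response, showed 2 peaks without Dox and then none at 24 or 48 h, although 2 peaks at 48 h were nearest to KLF10 when only the 5′ ends of genes were used. The peaks without Dox had 7.88-fold (5.43 to 11.1), 1.89 kb downstream of the 5′ end, and 5.48-fold (3.75 to 7.75), 220 bp from it. At 72 h a single interval of 3163 bp covered both, at 14.5-fold (11.7 to 17.8), with its summit 65 bp from the stronger of the earlier pair (ratio 1.85, 1.24 to 2.93). The other 7 regions of KLF10 were called only at 72 h. They included regions 1 and 2, 43.0 and 38.5 kb downstream, at 15.7-fold and 11.9-fold, and region 5, 1.86 kb upstream in an exon of the non-coding gene ENSG00000283959, at 6.01-fold. The remaining 4 had 3.99-fold to 4.22-fold. Where each gene counted with its 5′ end alone, KLF10 had 2 peaks at 48 h.

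KLF3 (plus strand of chromosome 4, 38664197 to 38701517), a repressor, had its promoter called without Dox. Region 4, within 211 bp of the 5′ end and in an intron of KLF3-AS1, had 7.31-fold (4.55 to 11.2) without Dox, was not called at 24 or 48 h, and had 5.04-fold (3.21 to 7.58) at 72 h. The ratio was 0.689 (0.355 to 1.36), an interval that included 1. Region 5, 3.11 kb downstream in an intron of KLF3, appeared at 48 h at 4.20-fold (2.86 to 5.97) and had 8.22-fold (6.16 to 10.8) at 72 h. Its summit lay 2998 bp from a start site at 48 h and 2965 bp at 72 h. KLF3 thus counted among genes with a summit within 3 kb at 48 h only by a site just inside that limit. The other 4 KLF3 regions were called only at 72 h, at 4.55-fold to 7.87-fold, and KLF3 had the lowest maximum of the 7 genes at that time.

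**Figure D3:**
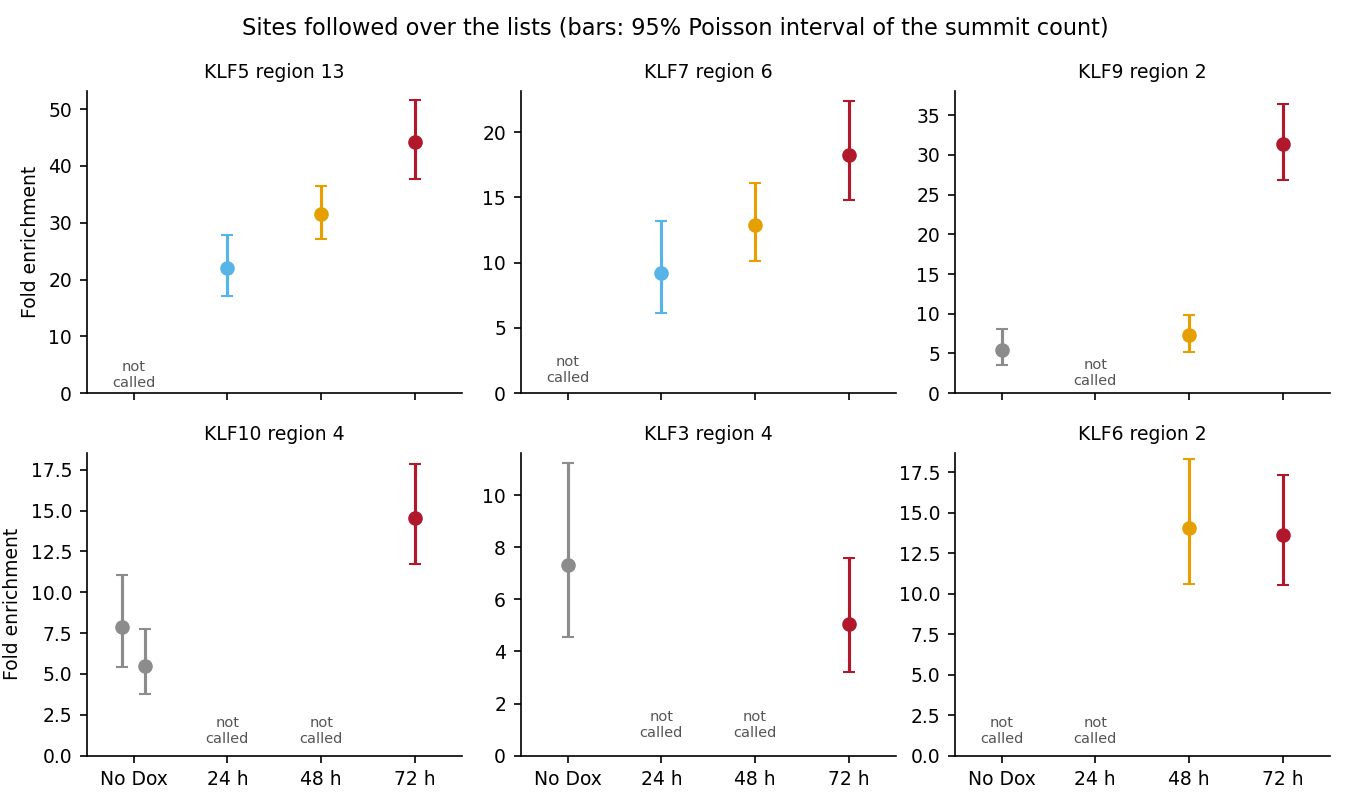
Fold enrichment of 6 KLF sites in the 4 lists, with 95% Poisson intervals of the summit count, and "not called" where the list held no peak. KLF5 region 13 has 22.0, 31.6 and 44.2 in the Dox lists with little overlap of the bars, KLF9 region 2 has 7.27 at 48 h and 31.4 at 72 h, and the bars of KLF6 region 2, at 14.1 and 13.6, overlap almost fully.

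Whether binding once gained was kept was read from the overlap of peaks, counted from 1 bp. Both KLF peaks of 24 h were called again at 48 h (92.3% of all peaks) and at 72 h (96.7% of all peaks). When the overlap had to cover 50% of both intervals, 1 of the 2 was called again at 48 h and 0 at 72 h. A narrow peak inside a much wider one fails this setting. The 24 h peak of KLF5 region 13, 589 bp wide, lay wholly inside the 1629 bp peak of 72 h. All 28 KLF peaks of 48 h were called again at 72 h (exact binomial interval 87.7% to 100%), beside 95.3% of all peaks. Of the 4 KLF peaks without Dox, 0 were called at 24 h (20.1% of all peaks), 1 at 48 h (32.0%) and 4 at 72 h (89.3%), or 1 at 72 h with the 50% overlap. At 1 bp, each of these shares over all peaks lay within the exact interval of the KLF share, which is wide for 2 or 4 peaks. In all, 46 of the 76 regions were called at 72 h alone, 25 at 48 and 72 h, 2 from 24 h on, 2 without Dox and at 72 h, and 1 without Dox and at 48 and 72 h. No region was missing at 72 h.

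At the 28 KLF sites called at both 48 and 72 h the median ratio of fold enrichment was 2.0, with a range of 0.743 to 4.56, beside a median of 1.90 (quartiles 1.38 and 2.62) over 11203 matched peaks of all genes. The ratio was above 1 at 26 of the 28 sites, where 91.1% of all matched peaks were above 1, and its interval lay wholly above 1 at 22 sites and wholly below 1 at 0. By gene the median ratio was 3.32 for KLF9 (4 sites), 2.40 for KLF4 (2), 1.96 for KLF5 (7), 1.78 for KLF7 (6) and 1.68 for KLF6 (8). The single KLF3 site had 1.96. Summits of 24 of the 28 pairs lay within 100 bp of each other. Each ratio also depends on the local background, which the intervals hold fixed. Fragments and backgrounds are not scaled for depth, and the lowest background was 2.84 at 48 h and 2.01 at 72 h. With fragments taken over the lowest background of each list, the median ratio of the 28 KLF sites was 2.58. At KLF5 region 2 the background fell from 6.97 to 2.08, with 48 and 72 fragments. At KLF9 region 2 it was 4.50 and 4.45, with 39 and 170 fragments.

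**Figure D4:**
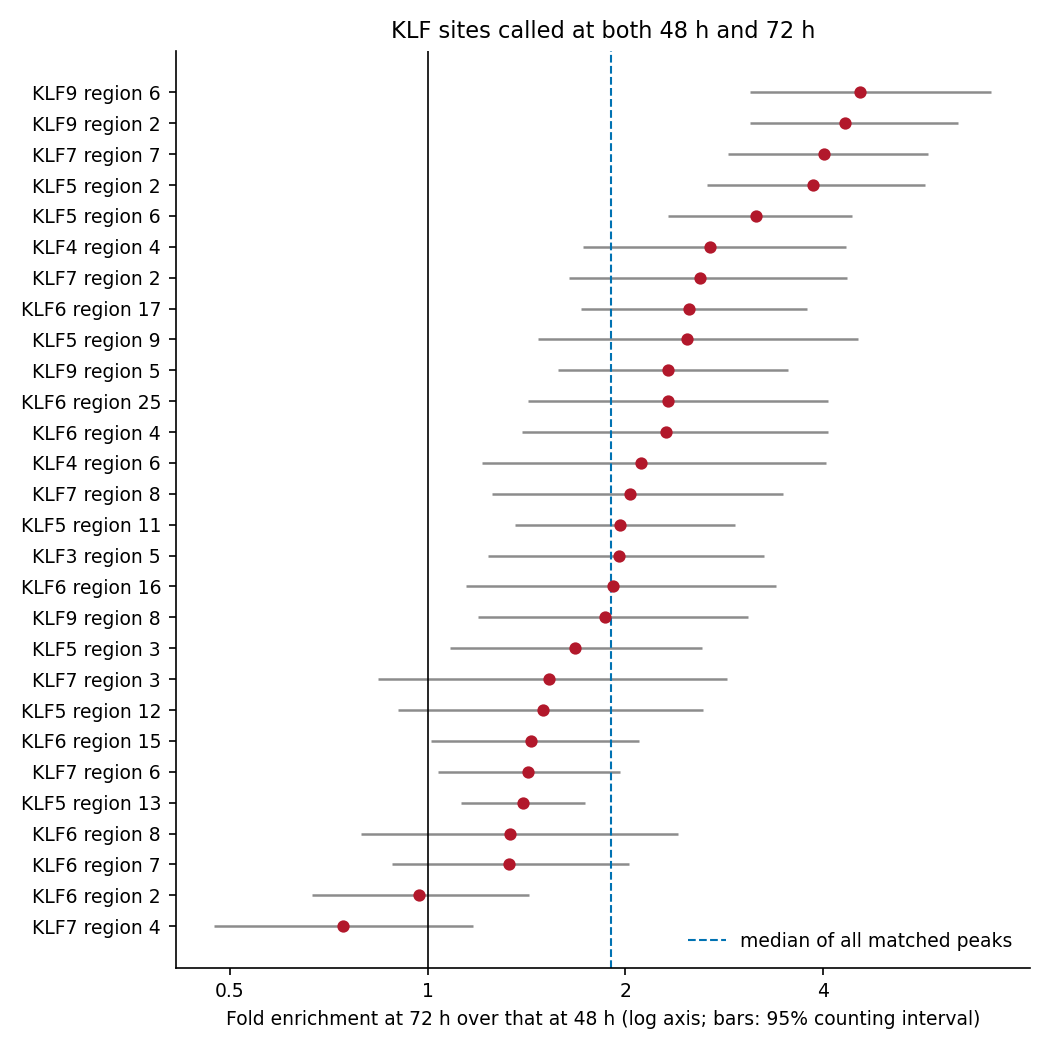
Ratio of fold enrichment at 72 h over 48 h (log axis) at the 28 KLF sites called at both times, ordered by ratio, with 95% counting intervals and the median of all matched peaks as a dashed line. The top of the plot holds 2 KLF9 sites at 4.56 and 4.32, and the bottom KLF7 region 4 at 0.743.

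The 72 h peaks at the KLF loci fell into 28 that overlapped a peak of 24 or 48 h and 48 that did not. The former had a median fold enrichment of 13 (range 6.36 to 44.2) and the latter of 5.78 (3.32 to 27.1). Over all genes the same classes had 13.4 and 6.11. A TEAD match was present in 12 of the 28 (42.9%) and 11 of the 48 (22.9%), beside 42.6% and 21.3% over all genes. Within 3 kb of a TSS lay 4 of the 28 (14.3%) and 13 of the 48 (27.1%), where all genes had 19.1% and 44.9%. The earlier peaks made up 36.8% of the 72 h peaks at the KLF loci and 28.0% over all genes, a difference with no replicate check.

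Sequence at the summits was searched on both strands for 4 motifs in windows reaching 100 bp to each side. For motifs, all peaks means those within 250 kb of a protein-coding TSS, 10695 at 48 h and 36367 at 72 h. TEAD (ACATTCC or GCATTCC) was found in 10 of 28 KLF peaks at 48 h (35.7%, exact interval 18.6% to 55.9%), beside 41.9% of all peaks. At 72 h it was found in 23 of 76 (30.3%, 20.2% to 41.9%), beside 27.2%. AP-1 (TGACTCA or TGAGTCA) was found in 5 of 28 (17.9%, 6.06% to 36.9%) and 9 of 76 (11.8%, 5.56% to 21.3%), beside 19.6% and 15.7%. RUNX (TGTGGTT) had 3 of 28 and 4 of 76, or 10.7% and 5.26%, beside 10.8% and 6.68%. The KLF/SP motif (CCNCNCCC), which the KLF proteins themselves bind, was found in 6 of 28 (21.4%) and 29 of 76 (38.2%), beside 22.2% and 38.1%. All 8 intervals included the share over all peaks. Both TEAD and AP-1 were found in 0 of 28 KLF peaks at 48 h, beside 6.64% of all peaks, and in 4 of 76 at 72 h (5.26%), beside 3.87%. A window with several motifs counts under each.

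**Figure D5:**
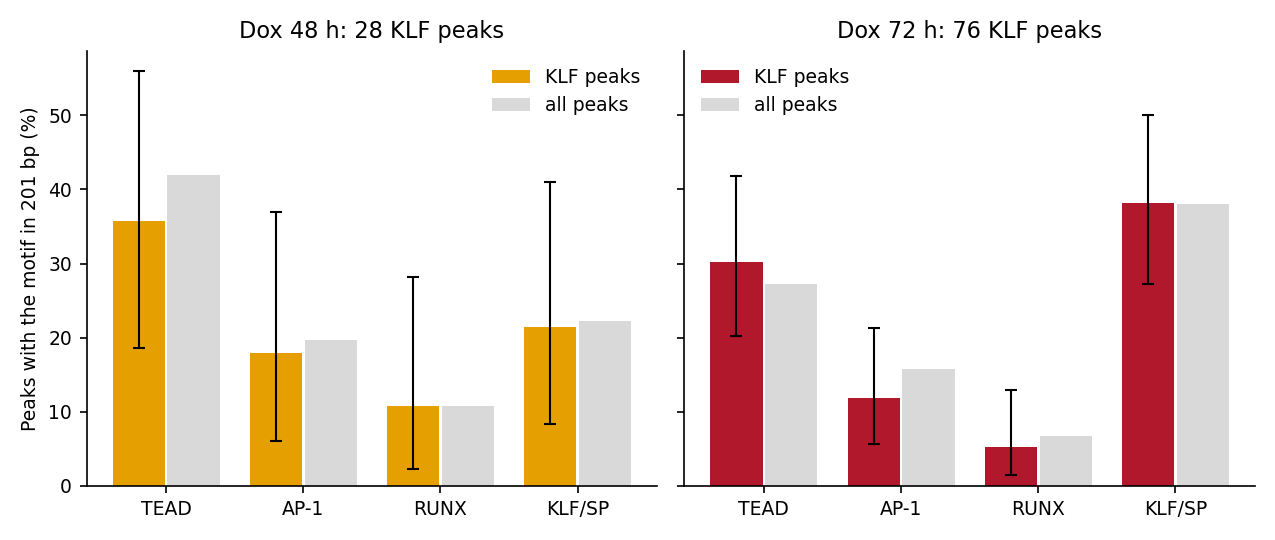
Share of KLF peaks (coloured bars, with exact 95% binomial intervals) and of all peaks (grey bars) that hold each of 4 motifs within 100 bp of the summit, at 48 h (left) and 72 h (right). All peaks are those within 250 kb of a protein-coding TSS. The grey bar lies within the interval of the coloured bar for each motif, with 30.3% against 27.2% for TEAD at 72 h.

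The motif shares were also read by position. Within 3 kb of a TSS at 72 h, TEAD was found in 5 of 17 KLF peaks (29.4%, 10.3% to 56%), beside 15.7% of all such peaks, and KLF/SP in 12 of 17 (70.6%, 44% to 89.7%), beside 56.3%. Beyond 3 kb, TEAD was found in 18 of 59 (30.5%, 19.2% to 43.9%), beside 34.2%, and AP-1 in 7 of 59 (11.9%, 4.91% to 22.9%), beside 20.4%. All 4 KLF peaks without Dox held the KLF/SP motif and 0 held TEAD or AP-1. Over the peaks of that list within 250 kb of a protein-coding TSS, 54.1% held KLF/SP and 20.9% TEAD or AP-1. By gene, TEAD was found at 72 h in 6 of 25 KLF6 peaks, 5 of 13 at KLF5, 4 of 8 at KLF7, 3 of 8 at KLF10, 2 of 10 at KLF9, 2 of 6 at KLF4 and 1 of 6 at KLF3.

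The other 20 genes of the KLF and SP family were read by the same rule. Together they had 1 peak in the No Dox list and 2, 13 and 53 peaks in the Dox lists, in order of time. A summit within 3 kb of a TSS was found at 1 of these genes in the No Dox list (SP3), at 0 after 24 or 48 h, and at 11 after 72 h (KLF1, KLF2, KLF8, KLF11, KLF12, KLF16, SP1, SP2, SP3, SP4 and SP8). The share over all protein-coding genes was 9.42% in the No Dox list and 2.55%, 9.1% and 58.5% in the Dox lists. At 72 h 17 of the 20 had a peak by the rule, and KLF14, named after its value was seen, had the most, 12. Partners of KLF proteins were read in the same way. The co-repressors CTBP1, CTBP2 and SIN3A, the ubiquitin ligase components WWP1 and FBXW7 that act on KLF5, and the acetyltransferase EP300 had a promoter summit at 0 of 6 genes in the No Dox list, 1 after 24 h (SIN3A, 4.01-fold), 1 after 48 h (FBXW7, 5.93-fold) and all 6 after 72 h, beside the same shares over all genes. CTBP2 had 16 peaks at 72 h and FBXW7 had 9.

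The genes whose numbers of peaks over the 4 lists lay closest to those of KLF6, by the Euclidean distance of log2(peaks + 1), were PALLD with 0, 0, 7 and 22 peaks, FRMD4A and MICAL2 with 0, 0, 8 and 18 each, SLC1A3 with 0, 0, 11 and 20 and DST with 0, 0, 6 and 19. KLF6 had 0, 0, 8 and 25. At the 250 kb limit, the outermost peaks inside it were those of KLF6 at 247 kb (4.26-fold) and KLF4 at 244 kb (7.58-fold) at 72 h. Just outside, and not counted, lay peaks at 72 h that were nearest to KLF6 at 280 kb (28.5-fold), to KLF4 at 261 kb (7.95-fold) and 265 kb (16.5-fold), and to KLF5 at 261 kb (12-fold).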

How the data were processed

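TAZ and IgG ChIP-seq libraries of MCF10A cells were grouped by their titles, 1 library per antibody and condition. According to the methods of the study, the authors trimmed reads for quality, mapped them to hg38 with BWA and called peaks with MACS2, keeping a false discovery rate of 0.01. The version of neither tool, nor the use of the IgG library as control, was given in the sources used here. Both libraries of a condition carry the same peak list in their labels. The deposited lists give the fold enrichment, and −log10 of the p-value and of the q-value. The fold enrichment was taken here to be (summit fragments + 1) over (local background + 1), a form that the methods of the study do not state.

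Coordinates are 1-based. Start sites were those of all transcripts of protein-coding genes on chromosomes 1 to 22, X and Y in GENCODE version 44. Summit fragments and background were solved from the deposited ratio and Poisson p-value. The solution returned the −log10 p of every KLF peak within 1.86e-05. Intervals are 95%: exact Poisson for fragments, exact conditional for ratios with both backgrounds held fixed, and Clopper-Pearson for shares. Total read numbers were not used. Fragments are not independent molecules, so intervals cover counting error only. Steps were tested on simulated data. Python 3.11.15, numpy 2.4.6, pandas 2.3.3 and scipy 1.17.1 were used.

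The 7 genes, the rest of the family, the partners, the markers and the motifs were chosen with earlier results of these data known. Sites named are the strongest of each gene in each list, those called in 2 or more lists and those within 3 kb of a start site. Sites with printed sequence or set at the distance limit were named in addition. The alternatives are given at the end. Sequences were read from hg38; those of chromosome 8 are not printed.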

Additional observations from a re-analysis of the deposited data

How the results depend on the processing

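Of 221 recomputed values, 193 stayed within a set range, 27 moved beyond it and 1 reversed. The range was 1.5-fold for counts and ratios and the 95% binomial interval for shares, which is wide for few peaks. A stricter peak threshold (−log10 q of at least 5), gene 5′ ends in place of all start sites, a limit of 500 kb, promoter calls from the peak interval, 1 p threshold for lists scaled to the lowest background, and fragments over the lowest background moved none of the totals over the 7 genes. By gene, KLF4 at 48 h had 1 peak with the stricter threshold and with the scaled lists and 4 with 500 kb, and KLF10 at 48 h had 2 with 5′ ends. With a limit of 100 kb the KLF peaks numbered 1 at 24 h and 17 at 48 h. At 48 and 72 h KLF5 then had 3 and 8, KLF6 5 and 15, and KLF4 0 and 2, and KLF9 had 6 at 72 h. With a promoter of 1 kb, 0 KLF genes had a promoter peak at 48 h. When 50% of each interval had to overlap, 0.0% of KLF peaks of 24 h were called again at 72 h, 67.9% of those of 48 h, and 25% of those without Dox, whose ratio reversed to 0.689 at the 1 remaining site, KLF3 region 4. The median width of KLF peaks was 458, 630 and 804 bp in the Dox lists. In whole intervals the KLF peaks of 48 h had AP-1 in 42.9% and KLF/SP in 53.6%, and those of 72 h had TEAD in 47.4%, AP-1 in 34.2%, RUNX in 14.5% and KLF/SP in 59.2%. Within 50 bp of the summit KLF/SP was 7.14% at 48 h and 18.4% at 72 h, and TEAD was 17.1% at 72 h. Over all peaks the interval shares were 33.1% for AP-1 and 45.2% for KLF/SP at 48 h, and 42.5%, 30.7%, 18.4% and 68.7% for TEAD, AP-1, RUNX and KLF/SP at 72 h. In the narrow windows all peaks had KLF/SP in 12.8% at 48 h and 24.3% at 72 h, and TEAD in 20.5% at 72 h. No paired analysis was possible because each condition had 1 TAZ library, and for the same reason no library could be left out. The cause of each shift was not tested. Whether a site that was not called held signal below the threshold could not be read from the lists.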
